A study of Mus musculus with 20 samples.

Results

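The exocrine pancreas is made mostly of acinar cells, which synthesise digestive enzymes, store them in zymogen granules and release them into the ducts. The genes described here are those of acinar secretory proteins and of the transcription factors that maintain acinar identity, in mouse pancreatic ductal adenocarcinomas that were started in acinar cells. They were chosen as a list of 35 gene symbols. Of these, 32 were found among the 20636 genes of the deposited table (20574 of which carry a symbol), and 31 passed the minimum level and were tested. Cela3a, Serpini2 and Ptf1a are not analysed here, and Prss1 fell below the minimum.

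Every mouse carried Ptf1aCreER, a tamoxifen-inducible Cre recombinase under the control of the acinar gene Ptf1a, and R26 LSL-tdTomato on both copies, a reporter. KPAT mice also carried Trp53 fl/fl and Cdkn2A-Arf fl/fl, KAT mice Cdkn2A-Arf fl/fl only, and KPT mice Trp53 fl/fl only. Each group held 5 bulk tumours, called KPAT 1 to 5, KAT 1 to 5 and KPT 1 to 5. Tamoxifen, 5 mg a day by gavage for 3 days, was given at 8 to 10 weeks of age, and mice were kept until they became morbid. Tumours with neither floxed tumour suppressor (5 libraries) are not analysed here.

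Libraries held between 14696138 and 26248484 reads assigned to genes in KPAT tumours, between 16704627 and 22124495 in KAT tumours and between 16622901 and 23039354 in KPT tumours. The library numbers of the 3 genotypes do not overlap, so a batch that followed them cannot be told apart from genotype. The labels do not say outright that the tumours of a group came from separate mice, so the p-values measure only the spread between these samples, which may be technical. Levels are given in the authors' normalised counts, in which one unit stands for about 19.5 reads. In bulk tumour RNA, fewer cells of a type and less RNA per cell cannot be told apart.

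Many acinar enzymes are made as inactive precursors, or zymogens, and trypsin is the enzyme that activates the others in the gut. Their genes are switched on together by the PTF1 complex, in which PTF1A pairs with an E protein and with RBPJL, and this complex binds an E-box and a nearby TC-box. NR5A2, BHLHA15 (also called MIST1) and GATA4 act beside it in acinar differentiation. Acinar cells can turn into duct-like cells and lose this programme, which is the best-known route from acinar cells to pancreatic cancer in mice.

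The trypsins are the members whose reads are hardest to assign, so the starts of their coding sequences are shown first. The mouse trypsin genes lie in a cluster on chromosome 6 and encode trypsinogens of the same length, with coding sequences of 741 bases. The first 60 coding bases, taken from the GENCODE vM21 transcripts (GRCm38), are given 5′ to 3′, with capitals where a gene differs from Prss2.
Prss2: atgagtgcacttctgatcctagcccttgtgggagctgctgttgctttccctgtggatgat
Try5: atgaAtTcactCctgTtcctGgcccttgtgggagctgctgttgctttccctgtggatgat
Try4: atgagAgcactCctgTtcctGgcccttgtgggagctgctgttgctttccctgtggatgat
Prss3: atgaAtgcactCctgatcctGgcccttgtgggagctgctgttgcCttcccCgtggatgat
Prss1: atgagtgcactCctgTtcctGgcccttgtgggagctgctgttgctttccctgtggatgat
Over the whole coding sequence, identity to Prss2 was 91.6% for Try4, 90.3% for Try5, 89.6% for Prss1 and 88.7% for Prss3. Of the 31-base words in its transcripts, Try4 shared 82.8% with other genes, Prss3 75.4%, Prss1 69.3%, Try5 59.7% and Prss2 22.6%. How the authors counted reads that match several genes is not given in the sources used here, so the division of reads among these genes is uncertain. The same holds in part for Klk1, which shared 40.5% of its words (27.8% with Klk1b5), for Cela3b (26.1%), and for Ctrc and Cela2a, which overlap in the annotation and shared 19.8% and 16.6%. Ctrb1, Cpa1, Cel, Pnlip and Gp2 shared none.

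Promoters are shown for Ctrb1, Cel, Rbpjl and Pnlip, which were picked after their levels across tumours were seen. These promoters cover the 250 bases before the transcription start in RefSeq (GRCm38.p6). Ctrb1, Cel and Rbpjl hold an E-box (CANNTG) and a TC-box (TTCCCA) whose starts lie 6 to 25 bases apart on either strand, and Pnlip holds no E-box. Capitals mark TC-boxes, the E-boxes of such a pair, NR5A motifs (CAAGGTC) and GATA motifs (AGATAA), each on either strand. The windows are chr8:111691011-111691260 for Ctrb1 and chr2:28563404-28563653 for Cel, both on the minus strand, and chr2:164402944-164403193 for Rbpjl and chr19:58670115-58670364 for Pnlip, both on the plus strand.
Ctrb1: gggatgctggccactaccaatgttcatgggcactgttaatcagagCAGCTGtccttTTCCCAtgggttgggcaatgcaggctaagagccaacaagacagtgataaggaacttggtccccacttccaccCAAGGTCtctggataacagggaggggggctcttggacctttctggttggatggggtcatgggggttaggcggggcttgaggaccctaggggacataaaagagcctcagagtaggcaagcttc
Cel: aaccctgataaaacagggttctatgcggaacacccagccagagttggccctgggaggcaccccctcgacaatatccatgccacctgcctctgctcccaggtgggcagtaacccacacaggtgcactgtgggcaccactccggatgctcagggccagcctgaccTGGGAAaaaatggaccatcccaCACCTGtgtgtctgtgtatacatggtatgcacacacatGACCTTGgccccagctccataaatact
Rbpjl: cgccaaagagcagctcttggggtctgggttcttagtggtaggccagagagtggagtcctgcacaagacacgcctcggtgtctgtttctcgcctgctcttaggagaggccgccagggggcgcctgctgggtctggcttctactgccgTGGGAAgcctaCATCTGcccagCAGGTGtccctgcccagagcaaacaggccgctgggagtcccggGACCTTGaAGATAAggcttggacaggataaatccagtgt
Pnlip: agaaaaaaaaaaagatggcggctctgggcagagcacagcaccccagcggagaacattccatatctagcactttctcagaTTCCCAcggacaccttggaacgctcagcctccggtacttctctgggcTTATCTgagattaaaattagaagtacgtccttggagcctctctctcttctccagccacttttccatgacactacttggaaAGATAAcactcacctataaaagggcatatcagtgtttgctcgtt
A RefSeq promoter, here 250 bases before and 50 after the start, was at hand for 30 of the 35 listed genes. An E-box was found in 25 of these 30 (83.3%, against 75.0% of 27025 genes), and a TC-box in 17 (56.7%, against 28.3%). The pair of both was found in 6 (20%, against 5.82% of all genes), which were Cel, Cpa1, Ctrb1, Prss1, Rbpjl and Reg1. The NR5A motif was found in 4 (13.3%, against 4.51%), the GATA motif in 10 (33.3%, against 12.7%) and the MIST1 motif CATATG, which is itself an E-box, in 0 (against 4.49%). A match is only a match of letters and says nothing of binding. Sycn holds no E-box either, though its 5 highest tumours were KPAT 2, KPAT 4, KAT 1, KPT 2 and KPT 5. Try4, which kept an order like that of Pnlip, holds 3. Whether motifs bear on the levels across tumours was not tested.

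Acinar genes varied widely between tumours of one genotype. On the log2(normalised count + 1) scale, where normalised counts are brought back to the scale of reads, the SD between tumours of one genotype had a median of 2.42 over the 31 tested acinar genes, against 0.39 over all 16648 genes tested. For 23 of the 31 it lay above the 95th percentile of all genes. It was highest for Zg16 (3.58), Pnlip (3.21), Try4 (3.17) and Klk1 (3.09), and lowest for Dnase1 (0.45), Tmed6 (0.57), Cela1 (0.91) and Bhlha15 (0.97). These extremes were picked after the values were seen. The comparison with all genes was not matched for level. A gene can also pass the minimum mean through its highest tumour, and its SD is then large. Ctrc did so, with a mean of 10.3 and 147 reads in KPT 5.

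**Figure D1:**
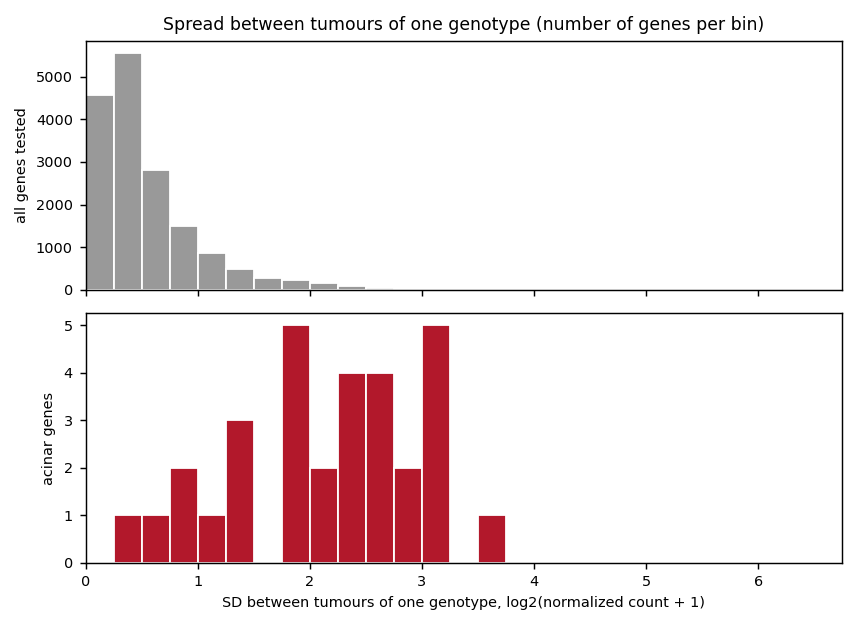
Number of genes per bin of the SD between tumours of one genotype, on the log2(normalised count + 1) scale, for all 16648 genes tested (top) and for the 31 acinar genes (bottom). The acinar genes centre on 2.42, and all genes on 0.39.

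The same few tumours stood high for most acinar genes. Among the 32 members, KPAT 2 was among the 5 highest tumours for 27, KPAT 4 for 23, KAT 1 for 28, and KPT 2 and KPT 5 for 20 each. KPAT 2 had the highest level of all 15 tumours for 6 members and KAT 1 for 17. At the low end, KPAT 3 had no read for 12 members and KPAT 5 for 9, whereas KAT 1 had at least one read for all 32. All genes leaned the same way. Of the 20636 in the table, 1049 had no read in KPAT 3, 1264 in KPAT 5 and 506 in KAT 1, the fewest of any tumour. KPAT 2, KPAT 4, KAT 1, KPT 2 and KPT 5 were picked as the tumours most often among the 5 highest for these same members. Each genotype held at least one of them. For 12 members they were exactly the 5 highest, but the same values had picked them, and no such count was made over all genes. Dnase1, Reg1, Nr5a2, Gata4, Tmed6 and Pnliprp2 had at most 2 of these 5 tumours among their own 5 highest.

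Summed over the 21 digestive enzyme genes (8 proteases, 5 trypsins, 6 lipases and lipase partners, 2 nucleases), levels in RPM (reads scaled to one common total of reads assigned to genes per library) were 157, 890.0, 23.1, 590.4 and 53.3 in KPAT 1 to 5. In KAT 1 to 5 the sums were 1456, 91.4, 134, 198 and 95.5, and in KPT 1 to 5 they were 92.8, 273, 60.4, 61.5 and 269. The 3 ranges overlapped, and KAT 1 stood above all other tumours. The sums averaged 343 ± 381 in KPAT, 395 ± 595 in KAT and 151 ± 110.2 in KPT tumours (SD, n = 5 each).

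**Figure D2:**
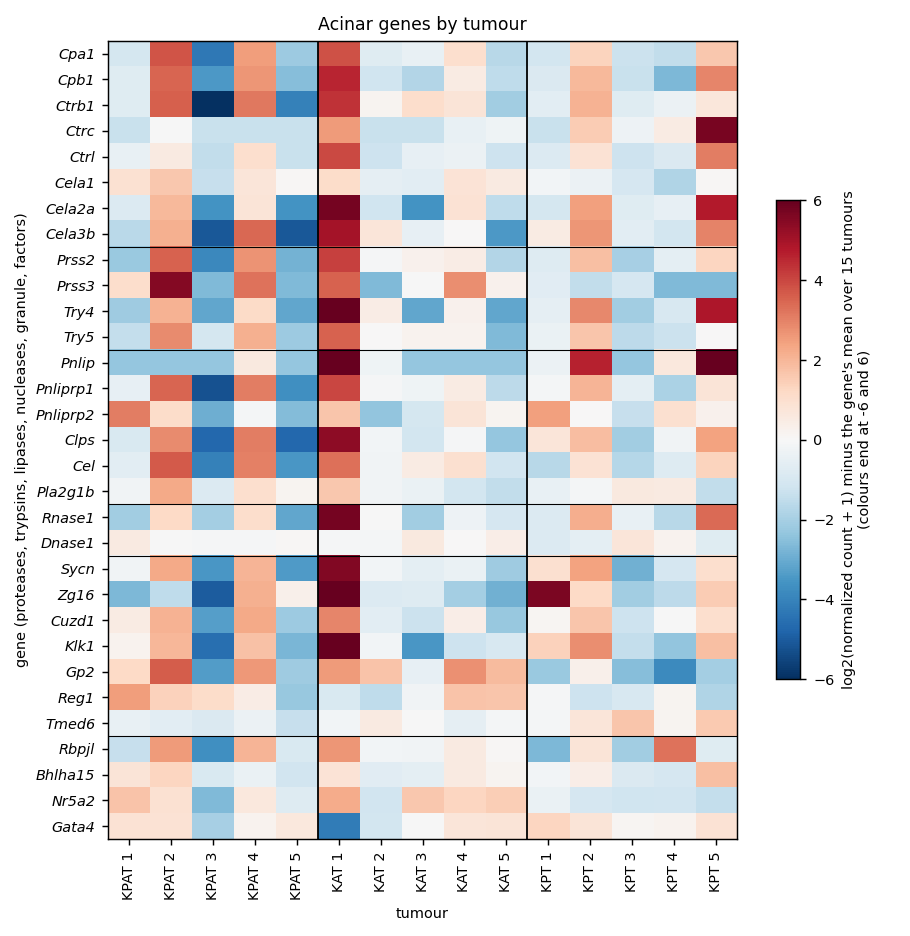
Level of each of the 31 tested acinar genes (rows, grouped by role) in each of the 15 tumours (columns), as log2(normalised count + 1) minus the gene's mean over all tumours, with colours ending at -6 and 6. Columns KPAT 2, KPAT 4, KAT 1, KPT 2 and KPT 5 are red over most enzyme rows, while Reg1, Tmed6, Nr5a2 and Gata4 follow other patterns.

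Of acinar genes that are not on the list, Amy2b and Spink1 are given for comparison. Amy2b, a pancreatic amylase, had 0, 2.26, 0, 1.34 and 0 normalised counts in KPAT 1 to 5, 7.08, 0.384, 0.418, 0.218 and 0 in KAT 1 to 5, and 0.251, 2.24, 0.108, 0.352 and 3.21 in KPT 1 to 5. Its 5 highest tumours were KPAT 2, KPAT 4, KAT 1, KPT 2 and KPT 5. Spink1, which encodes a trypsin inhibitor of acinar and intestinal cells, had 86.9 in KAT 1 and 11.2 in KPT 1, and at most 4.34 in any other tumour. Both genes were picked after their values were seen, and other genes counted beside them took other orders. Amy1, an amylase not particular to acinar cells, was high in KPAT 4 (6.24), KPT 2 (6.84) and KPT 5 (5.53). It had only 1.19 in KPAT 2 and 2.16 in KAT 1. Tff2 was lowest of all tumours in KAT 1 (100). Of the 13 other acinar enzymes and secretory proteins found, KAT 1 was highest for 7.

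Few acinar genes passed the test between genotypes, and in KPAT against KPT and KAT against KPT their share was below that of all genes. In KPAT against KPT, 1 of 31 acinar genes passed (0 higher, 1 lower, Tmed6), or 3.23%, against 16.5% of all genes tested, with 9.13% of all genes higher and 7.4% lower (limma on log2(normalised count + 1), Benjamini-Hochberg over 16648 genes, adjusted p at most 0.05). In KAT against KPT, 2 of 31 passed (Gp2 and Nr5a2, both higher), or 6.45%, against 28.9% of all genes, with 15.6% higher and 13.3% lower. In KPAT against KAT, 0 of 31 passed, against 0.0481% of all genes. In that comparison 0 acinar genes had an unadjusted p under 0.05 by limma, against 10.8% of all genes, and edgeR and DESeq2 called 0 as well.

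The median log2 fold change of the 31 genes was -0.53 in KPAT over KPT (10 above 0 and 21 below), -0.87 in KPAT over KAT (6 above and 25 below) and 0.01 in KAT over KPT (16 above and 15 below). Over all genes these medians were 0.016, -0.003 and 0.026. The standard errors of the acinar fold changes had a median of 1.37, against 0.24 over all genes. The 3 comparisons share samples in pairs, so their values are not independent.

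**Figure D3:**
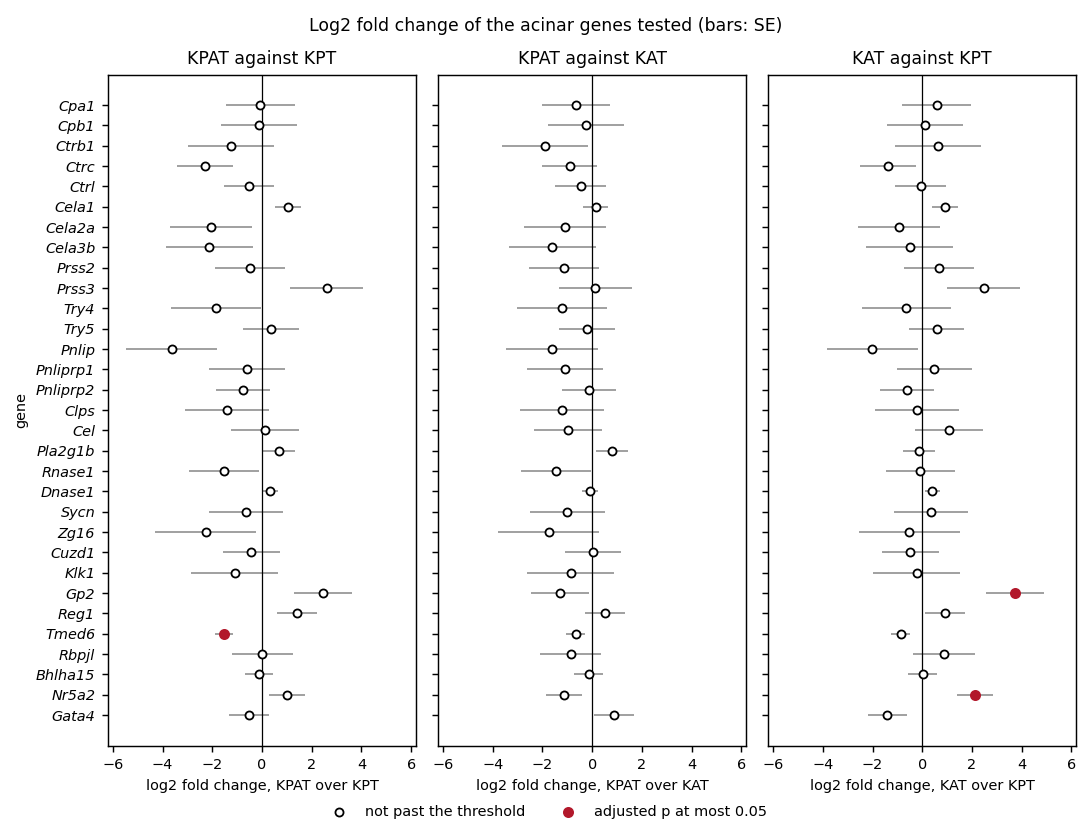
Log2 fold change of each of the 31 tested acinar genes (points) with its standard error (bars), for KPAT over KPT, KPAT over KAT and KAT over KPT. Filled points have an adjusted p of at most 0.05 and are Tmed6 in the left panel and Gp2 and Nr5a2 in the right panel.

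Among the proteases, Ctrb1 encodes chymotrypsinogen B. Per kilobase of exon it had the second highest mean level of the members over the 15 tumours, 133 normalised counts per kilobase. Ctrb1 had 19.2, 380.5, 0.164, 288 and 1.89 normalised counts in KPAT 1 to 5, 641, 35.9, 65.9, 54.1 and 7.58 in KAT 1 to 5 and 20.5, 137, 19.6, 24.7 and 50.8 in KPT 1 to 5. The highest tumour of each genotype was KPAT 2, KAT 1 or KPT 2, and the KPAT tumours spanned the whole range of the other genotypes but for KAT 1. Its log2 fold change of KPAT over KAT was -1.90 with a standard error of 1.73 (limma, adjusted p = 0.718).

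Cela1 encodes an elastase that, unlike most members, is also expressed outside the pancreas. Its mean level per kilobase was the fourth highest, 23.4. Cela1 had 84.2, 136, 17.2, 72.5 and 46.4 normalised counts in KPAT 1 to 5, 96.3, 30.1, 28.7, 79.3 and 63.4 in KAT 1 to 5 and 39.9, 34.9, 21.8, 12.7 and 46.5 in KPT 1 to 5. It was detected in every tumour, with KPAT 2 highest and KPT 4 lowest, and the groups overlapped. The log2 fold change was 1.04 ± 0.52 (SE) in KPAT over KPT (limma, adjusted p = 0.178) and 0.91 ± 0.52 in KAT over KPT (adjusted p = 0.198). Without KPAT 3, the first became 1.48 with an adjusted p of 0.0444.

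The other proteases were the carboxypeptidases Cpa1 and Cpb1, the chymotrypsins Ctrl and Ctrc and the elastases Cela2a and Cela3b. Cpa1 reached 56.0 in KPAT 2, 58.1 in KAT 1 and 12.8 in KPT 5, and Cpb1 19.4, 42.2 and 13.5 in the same 3 tumours. In every genotype at least one tumour had under 0.8 normalised counts of Cpb1. None of the 6 passed the test in any comparison by limma.

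Ctrc, Cela2a and Ctrl kept another order, led by KAT 1 and KPT 5, and so did Try4, Pnlip and Rnase1. Ctrl had 14.0 normalised counts in KAT 1 and 7.35 in KPT 5, and at most 1.74 in any other tumour. Ctrc encodes chymotrypsin C, which degrades trypsinogen. It reached at most 0.0741 normalised counts in KPAT tumours (KPAT 2) and 0.703 in KAT tumours (KAT 1), against 6.55 in KPT 5. The log2 fold change of KPAT over KPT was -2.29 ± 1.11 (SE; limma, adjusted p = 0.169). By edgeR's quasi-likelihood test it was -5.77 and passed (adjusted p = 0.0416), a fold change that rests on KPAT tumours with 0 to 2 reads each and on 147 reads in KPT 5. Of the reads for Ctrc and Ctrb1 together, those for Ctrc made up 0.0195% in KPAT 2, 0.110% in KAT 1, 0.233% in KPT 2 and 11.4% in KPT 5 (95% exact Clopper-Pearson interval in KPT 5 9.74% to 13.3%). Cela2a reads made up 0.619% of Cela2a and Ctrb1 reads in KPAT 2, 0.348% in KPAT 4, 4.86% in KAT 1, 2.38% in KPT 2 and 24.6% in KPT 5. These intervals, and those below, cover counting error only, and reads are not independent molecules. Ctrc, Cela2a, Ctrl and the read shares given for some of them and for other pairs were chosen after their values were seen.

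Among the trypsins, Prss2 had 0.960, 54.6, 0.273, 31.2 and 0.608 normalised counts in KPAT 1 to 5, 83.0, 4.45, 5.59, 6.53 and 1.37 in KAT 1 to 5 and 2.71, 16.6, 1.13, 3.13 and 11.6 in KPT 1 to 5. Its 5 highest tumours were KPAT 2, KPAT 4, KAT 1, KPT 2 and KPT 5, and the groups overlapped. Prss2, Prss3 and Pnlip were picked for values in every tumour after these were seen. Try5 ran from 0.852 to 29.2 in KPAT, from 0.604 to 47.0 in KAT and from 1.35 to 12.9 in KPT tumours. Prss1 averaged 1.29 reads on the scale of normalised reads, had no read in 10 of the 15 tumours, all 5 KPT tumours among them, and was not tested.

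Prss3 and Try4 parted from Prss2 in opposite ways. Prss3 had 0.606, 14.7, 0, 3.02 and 0 normalised counts in KPAT 1 to 5, 3.70, 0, 0.261, 2.13 and 0.330 in KAT 1 to 5 and 0.150, 0.0640, 0.108, 0 and 0 in KPT 1 to 5. Its level stayed at or under 3 reads in every KPT tumour, including KPT 2 and KPT 5, where Prss2 was well covered. Of the Prss3 and Prss2 reads, Prss3 made up 21.2% in KPAT 2 (19.4% to 23.2%), 8.82% in KPAT 4 (6.51% to 11.6%), 4.27% in KAT 1 (3.40% to 5.29%), 24.6% in KAT 4 (18.8% to 31.2%), 0.385% in KPT 2 (0.00974% to 2.12%) and 0% in KPT 5, where 0 of 260 reads allow up to 1.41%. Try4 was at the other end. Its share of Try4 and Prss2 reads was 3.28% in KPAT 2, 2.92% in KPAT 4, 32.9% in KAT 1, 16.5% in KPT 2 and 52.9% in KPT 5 (48.6% to 57.1%).

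The log2 fold change of Prss3 in KPAT over KPT was 2.60 ± 1.48 (SE; limma, adjusted p = 0.242). On the reads themselves it was 5.78 by edgeR's quasi-likelihood test (adjusted p = 0.0391) and 5.83 by DESeq2 (adjusted p = 0.00401), methods that add no 1 before the logarithm. Why the methods differed was not tested. The fold changes of KPAT over KPT rest mostly on KPAT 2, with 397 reads, beside 45 in KPAT 4, 12 in KPAT 1 and 0 in KPAT 3 and KPAT 5. In KAT over KPT, the log2 fold change of Prss3 was 2.465 ± 1.48 (SE; limma, adjusted p = 0.223). There it passed only by DESeq2 (4.32, adjusted p = 0.0291). Gm10334, which shared 73.7% of the words of Prss3, had 43 reads in KPAT 2, 5 in KPAT 4, 9 in KAT 1, 6 in KAT 4, 1 in KPT 4 and none in the other tumours. The first 4 of these tumours were also those in which Prss3 was highest, and an exchange of reads between the copies was not tested.

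**Figure D4:**
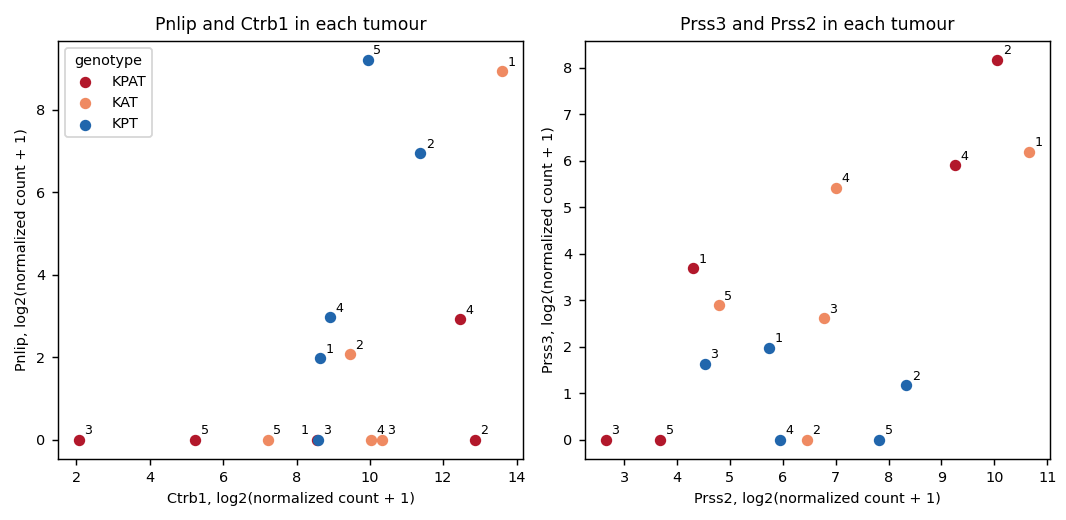
Pnlip against Ctrb1 (left) and Prss3 against Prss2 (right) in each of the 15 tumours, as log2(normalised count + 1), coloured by genotype and numbered by replicate. KPAT 2 has the highest Prss3 level and no Pnlip read, while KPT 2 and KPT 5 lie high for Pnlip and low for Prss3.

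Among the lipases, Pnlip encodes pancreatic triglyceride lipase, the main fat-digesting enzyme, and Clps its cofactor colipase. Pnlip had 0, 0, 0, 0.336 and 0 normalised counts in KPAT 1 to 5, 25.1, 0.165, 0, 0 and 0 in KAT 1 to 5 and 0.150, 6.27, 0, 0.352 and 30.5 in KPT 1 to 5. Only KAT 1, KPT 2 and KPT 5 lay above 1 normalised count, 8 tumours had no read, and the groups overlapped. Its log2 fold change was -3.64 ± 1.83 (SE) in KPAT over KPT (limma, adjusted p = 0.184) and -2.02 ± 1.83 in KAT over KPT (adjusted p = 0.429), and neither passed. Over the 27 alternatives, the fold change of KPAT over KPT ran from -6.88 to -2.15 and was called in 0.

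Pnlip had no or few reads in KPAT 2 and KPAT 4, which were rich in other lipases. Pnliprp1 encodes a pancreatic lipase-related protein and Cel the bile salt-activated carboxyl ester lipase. Pnliprp1 peaked at 68.3 normalised counts in KPAT, 96.8 in KAT and 24.8 in KPT tumours, and Cel at 68.7, 52.3 and 13.1. In KPAT 2 there were 0 reads of Pnlip beside 1855 of Cel, which allows a Pnlip share of up to 0.199% of the reads of the pair. That share was 0.779% in KPAT 4 (0.253% to 1.81%), 32.4% in KAT 1, 39.0% in KPT 2 (33.0% to 45.4%) and 69.9% in KPT 5 (66.9% to 72.7%). Against Ctrb1, the Pnlip share was 0 of 10269 Ctrb1 reads in KPAT 2, 0.116% in KPAT 4, 3.77% in KAT 1, 4.39% in KPT 2 and 37.5% in KPT 5. Tumours of high enzyme level thus differed in the make-up of their acinar transcripts, with Pnlip, Ctrc, Cela2a and Try4 taking smaller shares in KPAT 2 than in KPT 5 and Prss3 a larger one.

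Clps reached 11.3 normalised counts in KPAT, 55.8 in KAT and 7.13 in KPT tumours. Pnliprp2, a galactolipase that is also made by cells other than acinar cells, was highest in KPAT 1 (30.6) and KPT 1 (19.9), tumours that were not among the highest for the enzymes. Pla2g1b, a secreted phospholipase, stayed between 0.220 and 3.56 in all tumours. None of these lipase genes passed the test in any comparison.

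The 2 nucleases behaved differently from each other. Rnase1, pancreatic ribonuclease, reached 0.963 in KPAT, 23.2 in KAT and 4.63 in KPT tumours. Dnase1, a secreted deoxyribonuclease that kidney and gut also express, averaged 2.20 ± 0.44 in KPAT, 2.35 ± 0.54 in KAT and 1.90 ± 0.98 in KPT tumours (SD, n = 5 each) and was not higher in the tumours that were high for the enzymes. Neither passed the test.

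Zg16 and Klk1 led the granule proteins in KAT 1. Zg16 encodes zymogen granule protein 16, a lectin of acinar granules that is also made by intestinal goblet cells. Zg16 had 0.202, 0.519, 0, 7.11 and 1.95 normalised counts in KPAT 1 to 5, 608, 0.878, 0.888, 0.348 and 0.165 in KAT 1 to 5 and 79.9, 3.65, 0.324, 0.484 and 4.59 in KPT 1 to 5. KAT 1 stood far above all other tumours, KPT 1 followed, KPAT 2, which was high for most enzymes, was low, and the groups overlapped. Its mean of 37.6 normalised counts per kilobase, the third highest of the members, therefore rested on KAT 1. Klk1, a tissue kallikrein that releases kinins, reached 4.56 in KPAT 2, 141 in KAT 1 and 7.93 in KPT 2.

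Some intestinal genes, but not all, were high in the same tumours as Zg16. Muc2, the mucin of goblet cells, had 554 normalised counts in KAT 1, 47.8 in KPT 1 and 38.8 in KPT 5, and at most 4.29 in any other tumour. Reg4 had 53.4 in KAT 1 and 4.62 in KPT 1, and under 1 in the others. Muc2 and Reg4 were picked after their values were seen, and neither passed the test in any comparison. Of 17 intestine markers, all in the table, KPT 1 was highest for 12 and KAT 1 for 4. Their summed level was 430 to 1351 in KPAT, 411 to 2914 in KAT (KAT 1 highest) and 1157 to 5756 in KPT tumours (KPT 1 highest). The sum did not follow Zg16 throughout, since KPT 3 had the second highest of all tumours, 3679, at 0.324 normalised counts of Zg16. Between 0 and 5 of the 17 markers had no read in a given tumour. The part of intestine-like cells in the levels of Zg16 and Klk1 was not tested.

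The remaining granule proteins of low level were Sycn (syncollin, a granule membrane protein) and Cuzd1. Sycn reached 5.71 in KPAT, 55.0 in KAT 1 and 6.27 in KPT tumours. Cuzd1 reached 2.42, 3.80 and 1.54 in the 3 genotypes. Their 5 highest tumours were KPAT 2, KPAT 4, KAT 1, KPT 2 and KPT 5, and neither passed the test.

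Reg1 encodes lithostathine, a secretory protein of acinar cells that rises in pancreatitis. It had the highest mean level of the members per kilobase of exon, 394 normalised counts. Reg1 had 1306, 597, 493, 312 and 46.6 normalised counts in KPAT 1 to 5, 119, 77.7, 193, 740.0 and 707 in KAT 1 to 5 and 218, 95.9, 116, 254 and 65.5 in KPT 1 to 5. The order differed from that of the enzymes, with KPAT 1, KAT 4 and KAT 5 highest. KAT 1, which had the highest enzyme sum, lay at 119 normalised counts of Reg1, within the range of KPT tumours. KPT tumours lay between 65.5 and 254, within the range of the other genotypes. The log2 fold change was 1.42 ± 0.80 (SE) in KPAT over KPT (limma, adjusted p = 0.238, and 0.0477 without KPAT 5) and 0.91 ± 0.80 in KAT over KPT (adjusted p = 0.417).

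Gp2 encodes the major glycoprotein of the zymogen granule membrane. Gp2 had 19.8, 108, 0.817, 53.7 and 1.95 normalised counts in KPAT 1 to 5, 51.0, 29.0, 6.16, 57.8 and 32.2 in KAT 1 to 5 and 1.81, 10.9, 1.46, 0.572 and 2.05 in KPT 1 to 5. Of the KAT tumours, 4 lay above every KPT tumour, and KAT 3 lay between KPT 2 and the other KPT tumours. Gp2 rose in KAT against KPT tumours, by 3.74 ± 1.17 (SE) on the log2 scale (limma, adjusted p = 0.0276). The fold change of KPAT over KPT was 2.46 ± 1.17 (adjusted p = 0.163) and that of KPAT over KAT was -1.29 ± 1.17 (adjusted p = 0.719).

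The Gp2 call in KAT against KPT rested on single tumours: its adjusted p was 0.0550 without KAT 1, 0.0632 without KAT 4, 0.0526 without KAT 5, 0.0509 without KPT 1, 0.0523 without KPT 3 and 0.0616 without KPT 4. The fold change stayed between 3.31 and 4.34 in all 27 alternatives. In KPAT against KPT, Gp2 was called by edgeR (3.50, adjusted p = 0.0469), by DESeq2 (3.44, adjusted p = 0.00759) and by limma without KPAT 3 (3.39, adjusted p = 0.0492).

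Within KPAT tumours, Gp2 and the digestive enzymes gave the same order, from KPAT 2 through KPAT 4, KPAT 1 and KPAT 5 down to KPAT 3. KPT 2, KPT 5 and KPT 1 came first among KPT tumours for both. The orders differed within KAT tumours, where KAT 4 was highest for Gp2 and KAT 1 for the enzymes, and between genotypes. KAT 2, KAT 4 and KAT 5 had 29.0, 57.8 and 32.2 normalised counts of Gp2 at 91.4, 198 and 95.5 RPM of digestive enzymes, whereas KPT 2 and KPT 5 had 10.9 and 2.05 at 273 and 269. Endocrine markers were also high in part of the KAT tumours: summed over 13 genes they reached 5.07 to 372 in KPAT, 27.5 to 837 in KAT and 11.3 to 53.1 in KPT tumours, with KAT 4 and KAT 5 highest, and up to 2 of the 13 had no read in a tumour. The endocrine sums did not follow Gp2 throughout. They were 65.3 in KAT 1, 27.5 in KAT 2 and 315 in KAT 3, at 51.0, 29.0 and 6.16 normalised counts of Gp2. Stomach markers, summed over 10 genes, reached 494 to 4685 in KPAT, 286 to 3917 in KAT and 464 to 3046 in KPT tumours. The part of such cells in the level of Gp2 was not tested.

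Tmed6, a p24 family protein of the early secretory pathway that is strongly expressed in pancreas, went the other way. Tmed6 had 1.31, 1.15, 0.981, 1.41 and 0.669 normalised counts in KPAT 1 to 5, 1.64, 2.63, 1.77, 1.22 and 1.65 in KAT 1 to 5 and 1.66, 3.01, 5.78, 2.07 and 5.57 in KPT 1 to 5. Every KPAT tumour lay below every KPT tumour, which held for 4.93% of all genes in this direction. Tmed6 fell in KPAT against KPT tumours, by -1.53 ± 0.37 (SE) on the log2 scale (limma, adjusted p = 0.0140). It was called in all 26 alternatives in which it could be tested, with adjusted p between 0.000418 and 0.0381. The exception was a minimum mean of 50 reads, which left it untested.

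The mean of Tmed6 in KAT tumours lay between the others, and KAT tumours overlapped both, with a log2 fold change of -0.67 ± 0.37 in KPAT over KAT (adjusted p = 0.530) and -0.87 ± 0.37 in KAT over KPT (adjusted p = 0.0914). The last passed with quantile scaling (-1.28, adjusted p = 0.0237), by DESeq2 (-1.03, adjusted p = 0.0294) and without KPT 1 (-1.10, adjusted p = 0.0404). Tmed6 did not follow the enzymes, since KPT 3 and KPT 5 had 5.78 and 5.57 normalised counts at 60.4 and 269 RPM of digestive enzymes.

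**Figure D5:**
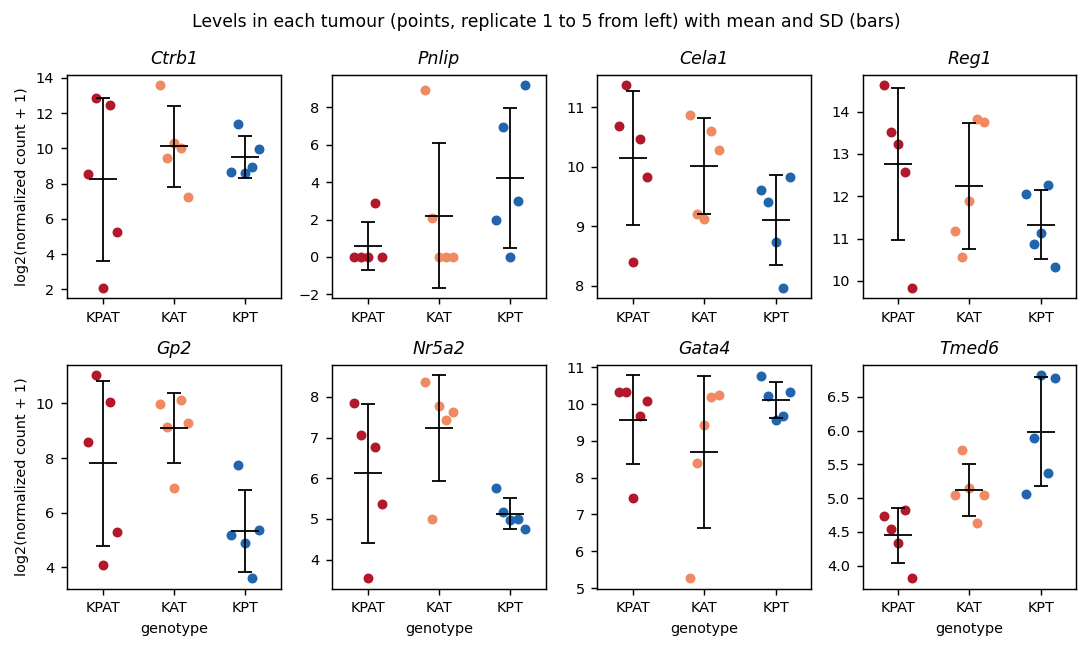
Level of 8 acinar genes in each tumour (points, replicates 1 to 5 from left to right) on the log2(normalised count + 1) scale, with group means and SDs (bars), by genotype. Tmed6 shows no overlap between KPAT and KPT tumours, Gp2 and Nr5a2 are high in 4 of 5 KAT tumours, and the KPAT points of Ctrb1 span the range of the other groups except KAT 1.

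Transcription factors of acinar cells were read out through Rbpjl, Bhlha15, Nr5a2 and Gata4. Rbpjl encodes the acinar subunit of the PTF1 complex. Rbpjl had 0.202, 3.85, 0, 2.68 and 0.304 normalised counts in KPAT 1 to 5, 4.17, 0.549, 0.522, 0.914 and 0.659 in KAT 1 to 5 and 0.0502, 1.09, 0.108, 6.30 and 0.356 in KPT 1 to 5. KPAT 2, KPAT 4 and KAT 1 were high as for the enzymes. The highest tumour was KPT 4, which had only 61.5 RPM of digestive enzymes, while KPT 5 was low for Rbpjl at 269, and the groups overlapped.

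Bhlha15 encodes MIST1, a factor for secretory granule organisation in acinar and other secretory cells, plasma cells among them. Bhlha15 had 3.38, 4.93, 1.03, 1.48 and 0.852 normalised counts in KPAT 1 to 5, 3.52, 1.21, 1.30, 2.87 and 2.25 in KAT 1 to 5 and 1.76, 2.62, 1.08, 0.969 and 6.95 in KPT 1 to 5. It was detected in every tumour, with KPT 5 highest and KPAT 5 lowest, and the groups overlapped. Neither Rbpjl nor Bhlha15 passed the test in any comparison.

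Nr5a2 encodes LRH-1, a nuclear receptor that restrains inflammation and acinar-to-ductal change in the pancreas and is also expressed in liver and gut. Nr5a2 had 11.8, 6.85, 0.545, 5.57 and 2.07 normalised counts in KPAT 1 to 5, 16.9, 1.59, 11.2, 8.88 and 10.1 in KAT 1 to 5 and 2.71, 1.79, 1.56, 1.58 and 1.34 in KPT 1 to 5. KPT tumours stayed between 1.34 and 2.71, and 4 of 5 KAT tumours lay at 8.88 or above, with KAT 2 among the KPT values. Nr5a2 rose in KAT against KPT tumours, by 2.11 ± 0.72 (SE) on the log2 scale (limma, adjusted p = 0.0398). The fold change was 0.99 ± 0.72 in KPAT over KPT (adjusted p = 0.365) and -1.12 ± 0.72 in KPAT over KAT (adjusted p = 0.592).

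The Nr5a2 call was lost with quantile scaling (1.78, adjusted p = 0.0621) and without any one of 8 tumours. Its adjusted p was 0.0893 without KAT 1, 0.0819 without KAT 3, 0.0751 without KAT 4 and 0.0779 without KAT 5. It was 0.0645 without KPT 2, 0.0682 without KPT 3, 0.0648 without KPT 4 and 0.0702 without KPT 5, and the fold change stayed between 1.78 and 2.68 in all 27 alternatives. By edgeR and DESeq2 it was 2.46 (adjusted p = 0.0149) and 2.43 (adjusted p = 0.000919).

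Gata4 encodes a zinc-finger factor of the foregut that acinar cells keep into adult life. Gata4 had 66.1, 66.4, 8.99, 42.0 and 55.8 normalised counts in KPAT 1 to 5, 1.92, 17.1, 35.6, 60.3 and 62.2 in KAT 1 to 5 and 88.6, 61.4, 38.9, 41.9 and 65.7 in KPT 1 to 5. It was detected throughout, and the lowest tumour was KAT 1, the tumour with the highest enzyme sum, followed by KPAT 3, which had the lowest. Stomach markers were lowest in KAT 1 as well, with a summed level of 286 there. The log2 fold change was -0.53 ± 0.80 (SE) in KPAT over KPT (limma, adjusted p = 0.686), 0.87 ± 0.80 in KPAT over KAT (adjusted p = 0.720) and -1.40 ± 0.80 in KAT over KPT (adjusted p = 0.197). Nr5a2 and Gata4 took opposite ends in KAT 1, where Nr5a2 had the highest value of all tumours and Gata4 the lowest.

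Lists around the acinar programme were counted with the same test. The shares to read these counts against are those of all genes, 9.13% higher and 7.4% lower in KPAT against KPT and 15.6% higher and 13.3% lower in KAT against KPT. Of 11 tested genes among other acinar enzymes and secretory proteins, 1 rose in KPAT against KPT, a share close to that of all genes, and 0 changed in the other comparisons. It was Tff2, a trefoil factor of pancreas and stomach, with means of 1591 ± 845 in KPAT and 301 ± 87.4 in KPT tumours (SD, n = 5 each; log2 fold change 2.27 ± 0.57, SE, adjusted p = 0.0164). None of 6 REG family genes changed in any comparison. Of 4 partners of the PTF1 complex, Tcf12, which encodes an E protein, rose in KPAT against KPT (0.61 ± 0.15, adjusted p = 0.0128) and in KAT against KPT (0.71 ± 0.15, adjusted p = 0.00299), and Tcf4, another E protein, rose in KAT against KPT (0.50 ± 0.14, adjusted p = 0.0160).

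A list of transcription factors around acinar differentiation, not all of them particular to acinar cells, had 11 tested genes. Of these, Prox1, a homeobox factor of pancreas development and lymphatic cells, rose in KPAT against KPT (1.27 ± 0.40, adjusted p = 0.0418) and in KAT against KPT (2.17 ± 0.40, adjusted p = 0.00165). Creb3l2, a factor of the secretory pathway, rose in KPAT against KPT (0.80 ± 0.24, adjusted p = 0.0357). No other gene of that list passed. Of 15 tested genes of stimulus and secretion machinery, Vamp8, a zymogen granule SNARE protein, fell in KPAT against KPT (-0.79 ± 0.20, adjusted p = 0.0172) and in KAT against KPT (-0.96 ± 0.20, adjusted p = 0.00327). In KAT against KPT, Itpr2, an inositol trisphosphate receptor, rose by 0.96 ± 0.27 (adjusted p = 0.0168) and Vamp2, another SNARE protein, by 0.55 ± 0.15 (adjusted p = 0.0172). In KPAT against KAT, 0 genes of these lists passed.

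Markers of other cells were counted against the same shares, 9.13% higher and 7.4% lower in KPAT against KPT and 15.6% higher and 13.3% lower in KAT against KPT. Fibroblast markers rose in 5 of 8 genes in KPAT against KPT and in 8 of 8 in KAT against KPT, and their summed level was 4834 to 13470 in KPAT, 6138 to 9282 in KAT and 862 to 3894 in KPT tumours. For Pdgfrb, a receptor of fibroblasts and pericytes, the log2 fold change was 1.21 ± 0.21 in KPAT over KPT (adjusted p = 0.00349) and 1.55 ± 0.21 in KAT over KPT (adjusted p = 0.000326). Leukocyte markers rose in 2 of 7 tested genes in each of these comparisons (Ptprc and Csf1r). Of 20 duct and metaplasia markers, 1 rose (Spp1) and 3 fell (Epcam, Cldn7 and Elf3) in KPAT against KPT, and 6 fell (Krt18, Krt19, Muc1, Cldn7, Cdh1 and Elf3) in KAT against KPT. Of the genes that fell, Elf3 had the largest fold changes in both, being an epithelial transcription factor (-1.69 ± 0.48, adjusted p = 0.0278, and -1.84 ± 0.48, adjusted p = 0.0115).

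Endocrine markers rose in 3 of 11 tested genes in KAT against KPT (Chga, Chgb and Pyy) and in 0 in KPAT against KPT. Intestine markers fell in 3 of 17 genes in KPAT against KPT (Cdx2, Muc3 and Cdhr5) and in 3 of 17 in KAT against KPT (Cdx2, Muc3 and Lgals4). Adipocyte markers fell in 1 of 5 tested genes in both (Cidec). The other 4 did not pass, and in KAT over KPT their log2 fold changes were above 0, being 2.30 for Adipoq, 2.42 for Plin1, 2.08 for Cfd and 0.25 for Fabp4. Stomach markers (8 tested) and liver and kidney markers (4 tested) changed in 0 genes in any comparison, and no marker of any of these lists changed in KPAT against KAT. The part of the cell mix in the levels of Gp2, Nr5a2 and Tmed6 was not tested.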

How the data were processed

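RNA of whole mouse pancreatic tumours (RNeasy midi kit) went into TruSeq RNA libraries for a HiSeq4000 instrument, per the labels' protocols. Per the submitters' processing notes, HISAT2 2.0.4 was used with mm10/GRCm38. Which counter, annotation, strand setting and normalization the authors used is not stated in these sources. The authors deposited one normalised signal value per gene and library, for 15 libraries (5 per group) and 20636 genes, 62 of them without a symbol in the annotation used. Within a library these values were whole multiples of one number (100% lay within 0.01 of a whole read), which gave back whole reads.

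Deposited values were brought to the scale of reads with one factor for all libraries (19.478, a geometric mean over libraries), and genes with a mean of at least 10 (16648 genes) were tested on log2(value + 1) with limma 3.58.1 (R 4.3.3), one fit of all 15 libraries, an intensity trend and a two-sided moderated test per comparison. Fold changes on this scale understate changes of low genes. Adjusted p-values are Benjamini-Hochberg values over all genes tested, with a threshold of 0.05. edgeR 4.0.16 and DESeq2 1.42.0 on recovered reads, and the settings in the closing part, were alternatives. The fit was tested on simulated data.

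A further allele shared by all groups is not reported here. The members and lists were chosen with earlier results of these data known. Values in every tumour are given for members past the threshold in any comparison and for the tested transcription factors. They are also given for the 4 members of highest mean level per exon length. Prss2, Prss3 and Pnlip were added after their values were seen. Of other lists, genes that passed the test are named, but of the fibroblast markers only Pdgfrb. Amy1, Amy2b, Spink1, Muc2, Reg2, Reg3b and Reg4 did not pass and were picked after their values were seen. Adipocyte markers that did not pass are named as well. Exon lengths and shared words of 31 bases come from GENCODE vM21. Tables and figures were made with Python 3.11.15, pandas 2.3.3, scipy 1.17.1 and matplotlib 3.10.9.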

Additional observations from a re-analysis of the deposited data

Results flagged for a closer look

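In 13 of 93 combinations of a tested acinar gene and a genotype, the highest or lowest of the 5 tumours stood apart by Dixon's criterion on the log2 scale. Chance alone flags about 1 in 20 groups, and the genes are not independent of one another.

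KAT 1 was the tumour that stood apart in 8 of them, each time as the highest of its group. Its normalised counts were 608.5 for Zg16, 55.8 for Clps, 55.0 for Sycn, 25.1 for Pnlip, 23.2 for Rnase1, 14.0 for Ctrl, 4.17 for Rbpjl and 0.703 for Ctrc, against at most 0.888, 1.22, 0.988, 0.165, 0.384, 0.653, 0.914 and 0.0549 in the other 4 KAT tumours.

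Among KPAT tumours, Ctrc stood apart in KPAT 2 (0.0741, against 0 in the others) and Pnlip in KPAT 4 (0.336, against 0), levels of a few reads. Dnase1 was 2.98 in KPAT 1, against 1.95 to 2.13 in the others. Gata4 was lowest in KPAT 3, with 8.99 against 42.0 to 66.4 in the others. In the KAT group, Nr5a2 was lowest in KAT 2, with 1.59 against 8.88 to 16.9 in the others.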

How the results depend on the processing

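Each result was recomputed under 27 alternatives, 15 of which left out one tumour. Acinar genes called in KPAT against KPT numbered 1, and became 0 with a minimum mean of 50, 4 by edgeR and 3 by DESeq2, and 1 to 3 with one tumour left out (3 without KPAT 3 and 2 without KPAT 5). In KPAT against KAT they stayed at 0 with any tumour left out (0 to 0) and in the other alternatives. In KAT against KPT they numbered 2, and became 4 by DESeq2, 0 without both KPT 1 and KAT 1, and 0 to 2 with one tumour left out. Over all genes, the count in KPAT against KPT (2752) became 1811 with only those 2 groups fitted and 1686 (without KPAT 2) to 2896 with one tumour left out. In KPAT against KAT (8) it became 17 with quantile scaling, 15 with only those 2 groups, 284 by DESeq2 and 7 to 36 (36 without KAT 2) with one left out, and in KAT against KPT (4805) 3553 to 4836. On recovered reads edgeR called 2706, 7 and 4684 genes in KPAT against KPT, KPAT against KAT and KAT against KPT, and DESeq2 called 3861, 284 and 5712. The fold change of Gp2 in KPAT over KAT (-1.29) changed sign to 0.066 by edgeR and 0.057 by DESeq2. The cause of these changes was not tested. Of 93 acinar fold changes, 55 changed sign under at least one alternative; 7 gained a call under at least one and 2 lost it. Scaling moved the median of all genes by at most 0.098 (log2, quantile scaling).

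With the replicate number as a block, acinar calls stayed at 1, 0 and 2 and all calls were 2248, 7 and 4313 in KPAT against KPT, KPAT against KAT and KAT against KPT. The numbers share nothing in the labels, and deviations of same-numbered tumours correlated at -0.126 to 0.218, -0.209 to 0.058 and -0.065 to 0.246. A tumour correlated best with its own number in 1, 0 and 2 of 5 cases.

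Prss1, Ctrc and Pnlip had few or no reads in most tumours, and differences among those tumours were not detectable at this depth.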

Other observations

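The REG family showed patterns of its own beside Reg1. Reg2, a member expressed in acinar cells, had 2.02, 38.5, 0.109, 20.6 and 0.365 normalised counts in KPAT 1 to 5, 62.2, 4.89, 2.14, 2.48 and 1.54 in KAT 1 to 5 and 2.66, 15.2, 2.48, 1.98 and 0.446 in KPT 1 to 5. It was high in KPAT 2, KPAT 4, KAT 1 and KPT 2, as the enzymes were, but not in KPT 5. Reg3b, which rises in pancreatitis and gut inflammation, had 705, 505, 419, 226 and 48.6 in KPAT 1 to 5, 147, 76.9, 254, 529 and 596 in KAT 1 to 5 and 1406, 48.9, 68.9, 178 and 56.3 in KPT 1 to 5. Its highest tumour was KPT 1. Both genes were picked after their values were seen, and neither passed the test in any comparison.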
